A study of Homo sapiens with 12 samples.

Results

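Counts of 35 genes of the endoplasmic reticulum (ER) stress and amino acid responses were read in MDA-MB-231 cells grown in Matrigel with or without Paclitaxel. They were chosen by symbol, as known members of these responses, among the 63568 gene identifiers of the count table. Earlier results of these data were known when they were chosen. All 35 were found and tested. Following the response each gene is best known for, 21 were placed in an ATF4 arm (regulators, amino acid synthesis and transport) and 14 in an ER arm (chaperones, folding enzymes, ER-associated degradation and XBP1). Some genes belong to both responses, so the division is one of convention. MDA-MB-231 is an established triple negative breast cancer line, labelled wild type, that carries green fluorescent protein. Droplets of cell-laden Matrigel were set on glass, the treated ones received Paclitaxel on day 2, and cells were released with collagenase and dispase before total RNA was taken. The 12 libraries form 6 conditions of 2 biological replicates: C1 (untreated, day 2), C2 (untreated, day 4) and doses of 0.0005, 0.005, 0.05 and 0.5 µM, all sampled on day 4. Untreated controls therefore exist on both days and treated samples on day 4 only. The labels place the drug on day 2, whereas the study's methods give a day after day 4 for the procedure that its RNA cultures are said to repeat, so the length of exposure is uncertain. The data hold 1 cell line, and fewer cells of a kind cannot be told apart from less RNA per cell in such bulk samples.

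As background, cells under stress phosphorylate the translation factor eIF2, which lowers protein synthesis in general and lets the ATF4 mRNA be translated. ATF4 then drives genes for amino acid uptake, amino acid synthesis and feedback control, and this can be set off by amino acid shortage, ER stress and other insults. Unfolded protein in the ER also activates IRE1, which splices the XBP1 mRNA, and ATF6, and these raise chaperones, disulfide isomerases and the degradation machinery. Paclitaxel binds and stabilises microtubules. Counts per gene measure mRNA alone, so neither eIF2 phosphorylation, ATF4 protein nor XBP1 splicing was seen here.

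Known binding motifs of the factors behind each arm were looked for upstream of the genes. In RefSeq promoters (GRCh38.p14, the 250 bases before the start of each gene), 31 of the 35 genes had an entry, and SLC7A11, NUPR1, PSPH and SHMT2 did not. The ER stress element, a site of ATF6 read on both strands as CCAAT, 9 bases of any kind and CCACG, occurred in 6 of 14 ER arm promoters (42.9%), in 0 of 17 ATF4 arm promoters and in 25 of the 27305 genes of the table (0.0916%). The core TGATGNAA, to which ATF4 dimers can bind, occurred in 3 of 17 ATF4 arm promoters (17.6%), in 1 of 14 ER arm promoters (7.14%) and in 3.89% of the table. TGACGTGG, a core of the unfolded protein response element, occurred in HYOU1 alone among the 31 genes and in 0.780% of the table. None of the 31 genes holds more than 1 kind of these motifs. The genes were placed in the arms as known members of the responses these factors drive. The shares are therefore no independent support for the division. The windows shown give 50 bases along the strand of the gene, with the motif in capitals, for 9 of the genes whose values follow, so that members with the ER element can be set beside those with the ATF4 core.
HSPA5 (chr9:125241376-125241425): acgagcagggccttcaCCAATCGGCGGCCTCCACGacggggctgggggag
XBP1 (chr22:28800588-28800637): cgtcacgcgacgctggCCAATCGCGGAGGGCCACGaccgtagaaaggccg
PDIA6 (chr2:10812838-10812887): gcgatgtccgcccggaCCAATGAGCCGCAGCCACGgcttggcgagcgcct
CALR (chr19:12938368-12938417): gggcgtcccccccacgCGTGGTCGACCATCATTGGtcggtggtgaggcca
CRELD2 (chr22:49918538-49918587): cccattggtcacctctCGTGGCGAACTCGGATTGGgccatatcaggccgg
HERPUD1 (chr16:56931945-56931994): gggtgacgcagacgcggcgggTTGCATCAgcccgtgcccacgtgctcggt
CHAC1 (chr15:40953241-40953290): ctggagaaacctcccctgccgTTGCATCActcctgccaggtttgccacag
CEBPG (chr19:33374050-33374099): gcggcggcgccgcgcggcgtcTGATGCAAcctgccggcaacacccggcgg
ASNS (chr7:97872448-97872497): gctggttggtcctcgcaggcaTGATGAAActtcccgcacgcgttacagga
HSPA5, XBP1, PDIA6, CALR and CRELD2 hold the ER stress element, and in CALR and CRELD2 it reads on the opposite strand. HERPUD1, CHAC1, CEBPG and ASNS hold the TGATGNAA core, on the opposite strand in HERPUD1 and CHAC1. A match is a description of letters and not of binding, and a window without one says nothing of the factor.

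The libraries held 38380629 to 79169121 counts (median 65977095.5), and the member with the fewest reads in any library, NUPR1, still had 51. Levels are given in CPM, the count scaled to a TMM-adjusted library size, and differences as log2 fold changes ± standard error. The word called marks an edgeR adjusted p-value under 0.05 over all 25249 tested genes. For 1 gene, permuting 2 treated and 2 control samples exactly gives no p-value under 0.333, so calls rest on the spread shared across conditions. The line's mesenchymal genes were high (VIM at 797 to 1366 CPM, AXL at 240.3 to 844), while of the receptor and epithelial genes ESR1, PGR and CDH1 stayed at or under 0.460 CPM, EPCAM read 4.37 to 6.77 and ERBB2 26.6 to 52.4 CPM. Among genes of other cell types PTPRC, CD3E and DCN stayed at or under 0.281 CPM, ACTA2 lay between 1.14 and 2.07 CPM and COL1A1 between 4.80 and 9.85 CPM. At these levels near 0, PTPRC was called higher in treated against untreated samples (log2 1.43 ± 0.49, adjusted p = 0.0409), and DCN read 0 to 0.0184 CPM untreated and 0.0421 to 0.153 treated, without overlap. AXL was called lower there (log2 -0.88 ± 0.16, adjusted p = 0.00113). Their part in the results was not tested. The C1 replicates were the least alike: over the 35 genes the median absolute log2 difference between replicates was 0.29, against 0.06 to 0.14 in the other conditions, and C1 replicate 2 was the shallowest library with the largest mitochondrial share (7.74%, against 3.73 to 6.18% in the others). For SLC7A5 they read 423 and 159.7 CPM. Members by level per kilobase of exon ran from NUPR1 at 0.512 and STC2 at 0.583 CPM per kilobase to ATF4 at 123 and CALR at 242, as means over the 12 samples.

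Against the untreated samples, the treated samples held more mRNA of DDIT3, STC2 and SLC3A2 and less of PSAT1, while the log2 fold changes of ATF4 and of BiP (HSPA5) were 0.00 ± 0.12 and 0.02 ± 0.15. Of the 35 genes 7 were called higher, where 13.1% of all tested genes were, and 6 lower, where 11.3% were. The 7 that rose, DDIT3, STC2, SLC3A2, NUPR1, SESN2, CHAC1 and CEBPB, belong to the ATF4 arm. The 6 that fell are ATF5 and PSAT1 in the ATF4 arm and CALR, PDIA4, PDIA6 and CRELD2 in the ER arm. The median log2 fold change was -0.00016 in the ATF4 arm and -0.30 in the ER arm. It was -0.15 over the 11193 tested genes with a mean of at least 8 CPM, the level range of 33 of the 35 members, and among those genes 3.92% were called higher and 21.1% lower. The 4 of 14 ER arm genes called lower stand beside that 21.1%, and none of the 4 was called without C1 replicate 1 or with day 4 samples alone. Treated and untreated samples did not overlap in 7 members, with 5 higher (DDIT3, STC2, NUPR1, SESN2 and CHAC1) and 2 lower (PSAT1 and SLC7A11). Over all tested genes 7.39% did not overlap with treated samples higher, and 5.77% with treated samples lower.

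**Figure D1:**
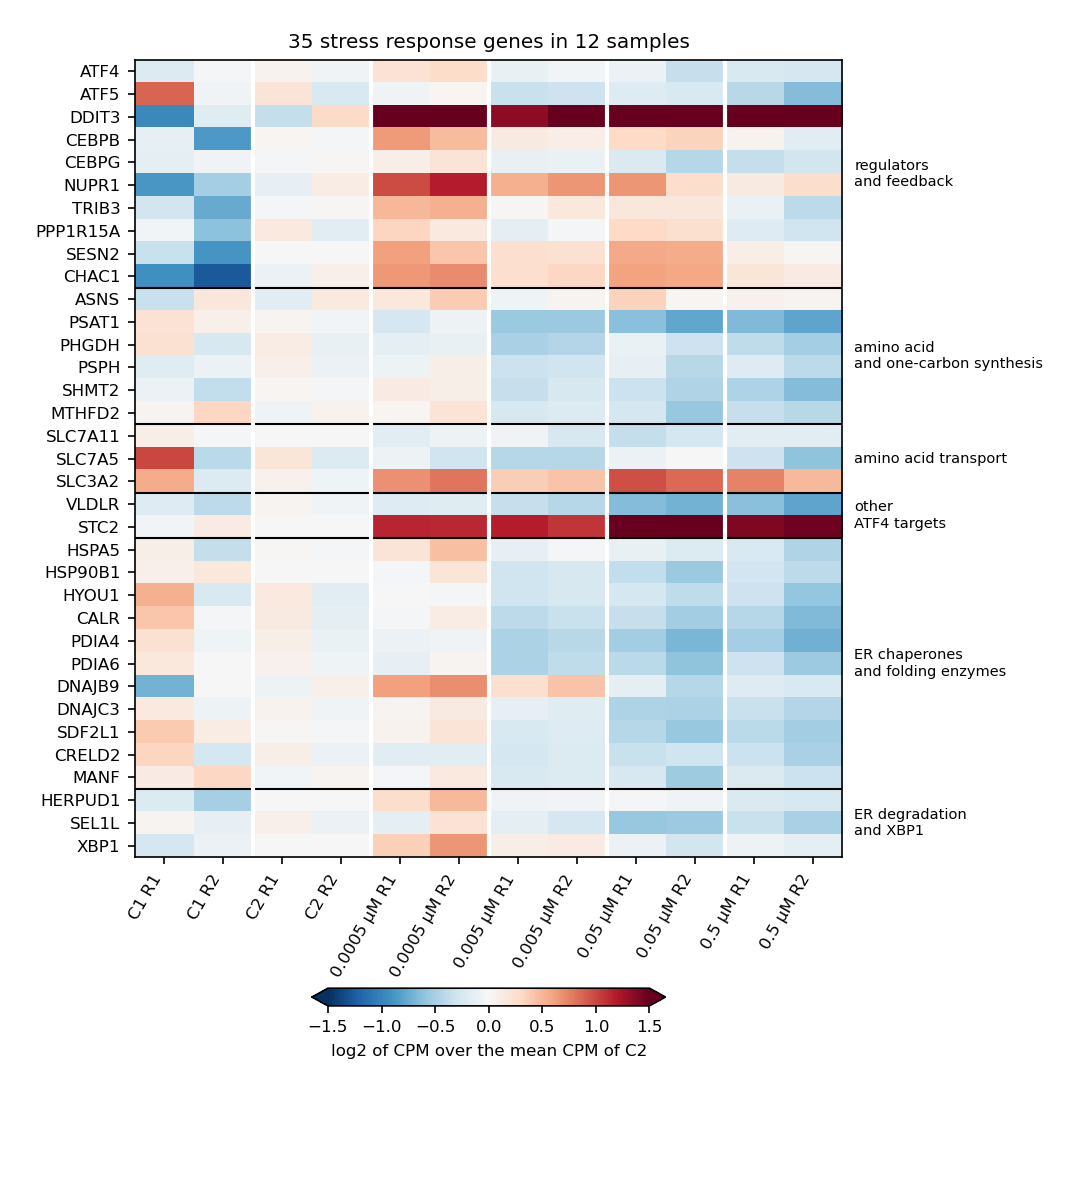
Each row is a gene and each column a sample, grouped by condition, and colour gives log2 of CPM over the mean CPM of C2, with values beyond 1.5 drawn at the end of the scale. DDIT3 and STC2 are dark red in all 8 treated samples, while most ER chaperones are blue at 0.05 and 0.5 µM.

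That contrast mixes day and drug, since the untreated group includes day 2. Between the untreated cultures of day 2 and day 4, CHAC1 was the 1 member called (C2 against C1, log2 fold change 1.07 ± 0.15, adjusted p = 0.0085), where 0.321% of all tested genes were called higher and 0.00396% lower. Without the day 2 samples, 5 members passed: DDIT3, STC2 and SLC3A2 higher, and PSAT1 and VLDLR lower. That setting was added after the data were seen, and it called 7.11% of all tested genes higher and 6.35% lower. NUPR1, SESN2, CHAC1 and CEBPB were no longer called in it, with log2 fold changes of 0.64 ± 0.25, 0.37 ± 0.15, 0.45 ± 0.16 and 0.26 ± 0.16. In the day comparison these genes had 0.70, 0.58, 1.07 and 0.44. ATF5, CALR, PDIA4, PDIA6 and CRELD2 were not called without day 2 either, with log2 fold changes of -0.24, -0.29, -0.40, -0.32 and -0.26. In that setting each of them was called lower at 0.5 µM against C2, where 10.7% of all tested genes were.

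Among the regulators, DDIT3 (CHOP), a transcription factor induced by ATF4 that is linked to stress-driven cell death, stood apart. It read 6.22 and 10.8 CPM in C1, 9.48 and 14.9 in C2, 37.5 and 42.4 at 0.0005 µM, 30.8 and 35.1 at 0.005 µM, 48.1 and 37.4 at 0.05 µM, and 38.1 and 41.1 at 0.5 µM. Each treated sample lay above each untreated sample. Against C2 it rose at every dose, by 1.72, 1.44, 1.81 and 1.70 on the log2 scale with standard errors of 0.26, and adjusted p-values of 0.00426, 0.0121, 0.00212 and 0.00412 in the same order. Over all treated against all untreated samples the change was 3.76-fold (1.91 ± 0.18 on the log2 scale, adjusted p = 5.41e-06). With day 4 samples alone DDIT3 had 1.68 ± 0.18. C2 differed from C1 by 0.53 ± 0.26, which was not called (adjusted p = 0.520). Its slope across the doses was 0.03 ± 0.05 per 10-fold dose (adjusted p = 0.788), so the step at the lowest dose was not followed by a detectable trend. DDIT3 lies on chromosome 12 (57910371 to 57915520, minus strand, GRCh37) and overlaps MARS1 and MBD6 on the other strand. The strand setting of the counting is not given in the sources used here, so reads of these genes may not be separable. MARS1 had -0.26 ± 0.11 and MBD6 0.02 ± 0.16 in treated against untreated samples, and neither was called.

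**Figure D2:**
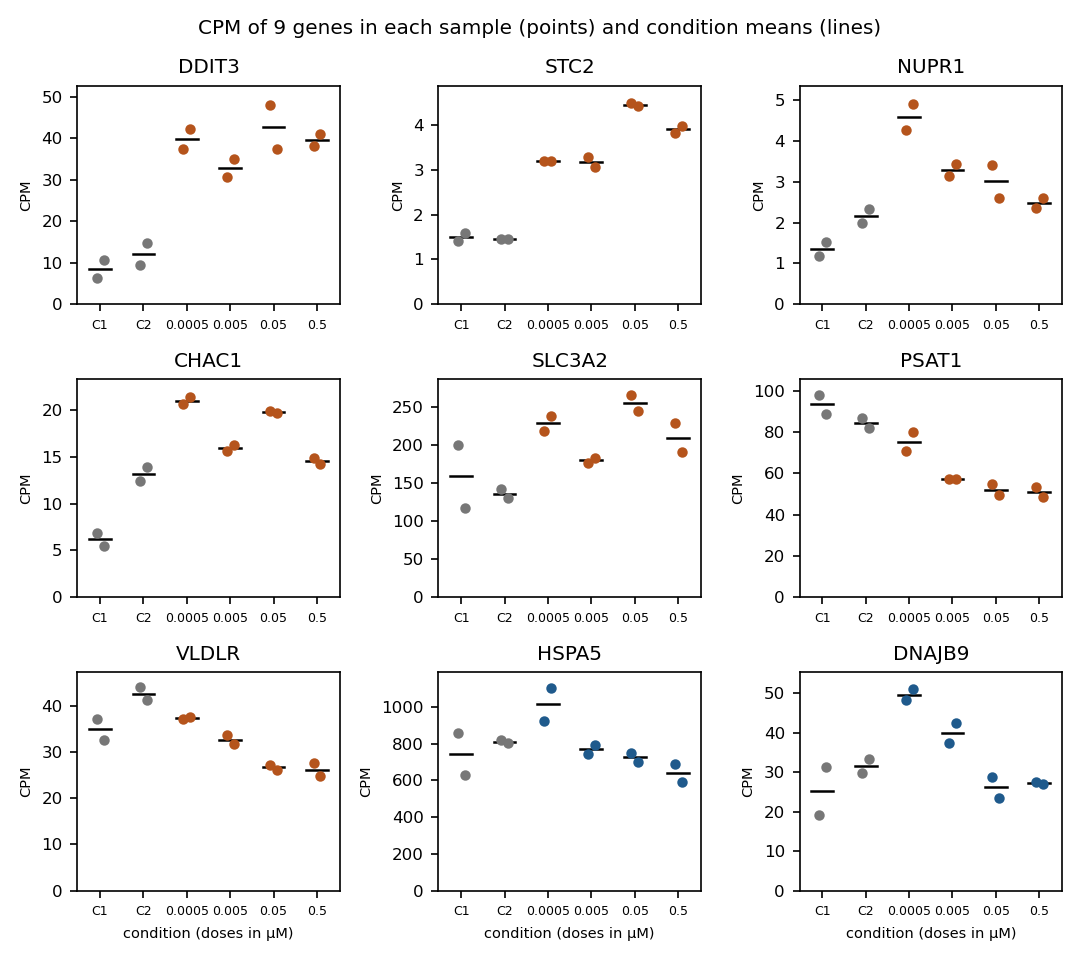
Points are single samples and lines condition means, in CPM on axes from 0, with untreated samples in grey, ATF4 arm genes in orange and ER arm genes in blue. DDIT3 and STC2 step up at 0.0005 µM and stay up, whereas NUPR1, PSAT1, VLDLR, HSPA5 and DNAJB9 are lower at 0.5 µM than at 0.0005 µM.

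ATF4 itself read 289.6 to 347 CPM in untreated and 264 to 407 in treated samples, with a log2 fold change of 0.00 ± 0.12 (adjusted p = 0.999). Its transcript was highest at 0.0005 µM (389 and 407 CPM) and its slope, -0.16 ± 0.04 per 10-fold dose, missed the threshold (adjusted p = 0.0612). ATF5, a paralogue that is also controlled at translation, read 35.8 and 18.8 CPM in C1, 22.3 and 16.6 in C2 and 12.4 to 19.8 in treated samples. It fell by 0.52 on the log2 scale in treated against untreated samples (adjusted p = 0.0285), where C1 replicate 1 is its highest sample. NUP62, which it overlaps on the other strand, fell there by 0.44 (adjusted p = 0.0207). CEBPB and CEBPG encode bZIP partners of ATF4. CEBPB was called higher in treated samples (0.46 ± 0.16, adjusted p = 0.0474) although the groups overlap, with 41.3 to 76.8 CPM untreated and 67.0 to 117 treated. CEBPG read 50.2 to 55.9 CPM untreated, 59.3 and 63.2 at 0.0005 µM and 43.2 and 45.5 at 0.5 µM. It had -0.09 ± 0.11 with treatment and declined along the doses by 0.16 per 10-fold dose (adjusted p = 0.0319).

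NUPR1, a small stress-induced nuclear protein, and CHAC1, an enzyme that breaks down glutathione, were highest at the lowest dose. NUPR1 (chromosome 16, 28544029 to 28550329, minus strand, GRCh37) read 1.18 and 1.52 CPM in C1, 2.00 and 2.34 in C2, 4.28 and 4.91 at 0.0005 µM, 3.14 and 3.43 at 0.005 µM, 3.43 and 2.61 at 0.05 µM, and 2.37 and 2.61 at 0.5 µM. The treated samples all lie above the untreated ones, by a narrow margin at 0.5 µM. It rose 2.12-fold at 0.0005 µM (log2 1.08 ± 0.21, adjusted p = 0.0157), was higher by 0.93 ± 0.22 over all treated samples (adjusted p = 0.00566) and fell along the doses by 0.28 per 10-fold dose (adjusted p = 0.0178). CHAC1 (chromosome 15, 41245160 to 41248710, plus strand) read 6.91 and 5.46 CPM in C1, 12.4 and 13.9 in C2, 20.6 and 21.4 at 0.0005 µM, 15.7 and 16.2 at 0.005 µM, 19.9 and 19.6 at 0.05 µM, and 14.9 and 14.2 at 0.5 µM. It was called against C2 at 0.0005 µM (0.68 ± 0.15, adjusted p = 0.0304) and at 0.05 µM (0.59 ± 0.15, adjusted p = 0.0274), but not at 0.005 µM (0.28 ± 0.14) or 0.5 µM (0.15 ± 0.15). Over all treated against untreated samples it had 0.88 ± 0.20 (adjusted p = 0.00535). The log2 difference between C1 and C2, quoted above, has a larger point value than any of these, and the difference between such changes was not tested.

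Feedback regulators behaved in more than one way. SESN2, which restrains mTORC1 when leucine is short, read 10.1 to 18.6 CPM in untreated and 18.8 to 28.4 in treated samples and was called higher in treated ones (0.62 ± 0.16, adjusted p = 0.00905), while no single dose passed against C2 (adjusted p from 0.0611 to 0.866). TRIB3, a pseudokinase that holds back ATF4 and CHOP, was not called with treatment (0.38 ± 0.17, adjusted p = 0.101) and fell along the doses by 0.22 per 10-fold dose (adjusted p = 0.0181), from 31.9 and 32.6 CPM at 0.0005 µM to 20.9 and 17.1 at 0.5 µM. PPP1R15A (GADD34), the phosphatase subunit that reverses eIF2 phosphorylation, was called in none of the 7 comparisons, with 171 to 289.9 CPM untreated and 213 to 329 treated.

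Of the 6 amino acid and one-carbon synthesis genes, 3 were called lower along the doses (PSAT1, SHMT2 and MTHFD2), where 2.04% of all tested genes were, 2 at 0.5 µM (1.96%), and PSAT1 alone at 0.005 µM (0.776%), at 0.05 µM (3.23%) and in treated against untreated samples (11.3%). PSAT1, which makes phosphoserine from the product of PHGDH, read 98.1 and 88.7 CPM in C1, 86.9 and 81.9 in C2, 70.6 and 79.8 at 0.0005 µM, 57.4 and 57.4 at 0.005 µM, 54.8 and 49.3 at 0.05 µM, and 53.3 and 48.7 at 0.5 µM. Each treated sample lay below each untreated one, and the condition means stepped down with each dose, 75.2, 57.4, 52.1 and 51.0 CPM. PSAT1 fell by 0.56 at 0.005 µM (adjusted p = 0.044), by 0.70 at 0.05 µM (adjusted p = 0.00937) and by 0.73 at 0.5 µM (adjusted p = 0.00996), and by 0.59 in treated against untreated samples (adjusted p = 0.00249), all on the log2 scale with standard errors of 0.12 to 0.13. Its slope was -0.18 ± 0.04 per 10-fold dose (adjusted p = 0.026). It lies on chromosome 9 (80912041 to 80945009, plus strand, GRCh37). PHGDH and PSPH, which catalyse the steps before and after it, had -0.31 ± 0.11 and -0.14 ± 0.10 in the same contrast and were not called (adjusted p = 0.0526 and 0.326).

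Mitochondrial one-carbon metabolism is represented by SHMT2 and MTHFD2. SHMT2 read 330.1 and 316 CPM in C2, 352 and 342 at 0.0005 µM and 235 and 207 at 0.5 µM, so that the highest dose lies below C2 and the lowest does not. It fell by 0.55 at 0.5 µM (adjusted p = 0.0472) and by 0.21 per 10-fold dose (adjusted p = 0.0179). MTHFD2 fell by 0.17 per 10-fold dose (adjusted p = 0.0454), from 84.3 and 94.8 CPM at 0.0005 µM to 64.8 and 61.5 at 0.5 µM. ASNS, asparagine synthetase and the textbook ATF4 target whose promoter window is shown above, read 69.6 to 98.5 CPM in untreated and 84.2 to 114 in treated samples. Its log2 fold change was 0.05 ± 0.19 at 0.5 µM and 0.17 ± 0.12 in treated against untreated samples (adjusted p = 0.313), and its largest value at a single dose was 0.28 ± 0.19.

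Of the 3 transporter genes SLC3A2 was the 1 called, at 0.05 µM and in treated against untreated samples, where 5.09% and 13.1% of all tested genes were called higher. It encodes the heavy chain shared by the SLC7A5 (neutral amino acids) and SLC7A11 (cystine) transporters. SLC3A2 (chromosome 11, 62623476 to 62656352, plus strand, GRCh37) read 199.5 and 118 CPM in C1, 142 and 130.3 in C2, 218 and 238 at 0.0005 µM, 176 and 183 at 0.005 µM, 265 and 245 at 0.05 µM, and 228 and 191 at 0.5 µM. All treated samples exceed both C2 samples, but C1 replicate 1 reaches into their range. It rose 1.88-fold at 0.05 µM (log2 0.91 ± 0.21, adjusted p = 0.0212) and by 0.57 ± 0.15 over all treated samples (adjusted p = 0.00992). The other doses gave 0.75 ± 0.21, 0.40 ± 0.21 and 0.62 ± 0.21, from low to high, and were not called. SLC7A5 had -0.45 ± 0.33 at 0.5 µM and -0.52 ± 0.19 over all treated samples (adjusted p = 0.0612). SLC7A11 read 196 to 212 CPM untreated and 155 to 192 treated, ranges that do not overlap, yet its log2 fold change of -0.20 ± 0.09 was not called (adjusted p = 0.107).

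STC2, a secreted glycoprotein, and VLDLR, a lipoprotein receptor, are both induced by ATF4 in other settings, and here they moved in opposite directions at 0.05 and 0.5 µM. STC2 read 1.42 and 1.58 CPM in C1, 1.46 and 1.45 in C2, 3.20 and 3.20 at 0.0005 µM, 3.29 and 3.07 at 0.005 µM, 4.49 and 4.44 at 0.05 µM, and 3.83 and 3.99 at 0.5 µM. The treated samples all lay above the untreated ones. It rose 2.20-fold at 0.0005 µM, 2.18-fold at 0.005 µM, 3.06-fold at 0.05 µM and 2.68-fold at 0.5 µM, with adjusted p-values of 0.00401, 0.00411, 0.00024 and 0.000971. On the log2 scale these are 1.14, 1.13, 1.62 and 1.42, with standard errors of 0.17. C2 differed from C1 by -0.03 ± 0.18. Over all treated samples the change was 1.32 ± 0.15 (adjusted p = 1.74e-05), and the slope along the doses, 0.14 ± 0.06, was not called (adjusted p = 0.215). STC2 is among the least abundant members (53 reads in the library with fewest) and lies on chromosome 5 (172741726 to 172755450, minus strand, GRCh37).

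VLDLR (chromosome 9, 2621182 to 2660056, plus strand, GRCh37) read 37.2 and 32.6 CPM in C1, 44.0 and 41.2 in C2, 37.1 and 37.5 at 0.0005 µM, 33.6 and 31.7 at 0.005 µM, 27.2 and 26.1 at 0.05 µM, and 27.5 and 24.7 at 0.5 µM. It was lower than C2 in both replicates of every dose. The log2 values fell by 0.68 at 0.05 µM (adjusted p = 0.0103) and by 0.71 at 0.5 µM (adjusted p = 0.0111), and along the doses by 0.18 per 10-fold dose (adjusted p = 0.013). VLDLR-AS1, which overlaps it on the other strand, had 0.24 ± 0.22 at 0.5 µM, of the opposite sign, and was called higher in treated against untreated samples (0.62 ± 0.17, adjusted p = 0.0159).

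At 0.5 µM against C2 the log2 fold changes of the 11 ER chaperones and folding enzymes ran from -0.61 to -0.21. HSPA5 (BiP), the main Hsp70 of the ER, read 859 and 630.4 CPM in C1, 818 and 803 in C2, 924 and 1105 at 0.0005 µM, 744 and 794 at 0.005 µM, 747 and 701 at 0.05 µM, and 691 and 593 at 0.5 µM. The treated samples spread to both sides of the untreated ones. The log2 fold change over all treated samples was 0.02 ± 0.15 (adjusted p = 0.945), while the slope fell by 0.21 per 10-fold dose (adjusted p = 0.0361). HSP90B1 (GRP94), the most abundant member by CPM, read 1316 to 1472 CPM untreated and 900.2 to 1502 treated, and HYOU1, a nucleotide exchange factor for BiP, 233 to 396 and 184 to 275, and neither was called in any comparison.

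The disulfide isomerase PDIA4 showed the largest drop of the ER arm at 0.5 µM. It lies on chromosome 7 (148700154 to 148725754, minus strand, GRCh37) and read 310.1 and 254 CPM in C1, 282 and 247 in C2, 249 and 256 at 0.0005 µM, 189.9 and 199 at 0.005 µM, 185 and 165 at 0.05 µM, and 187 and 160.1 at 0.5 µM. From 0.005 µM upwards each treated sample lies below each untreated one, and the 0.0005 µM samples do not. PDIA4 fell by 0.60 at 0.05 µM (adjusted p = 0.0321), by 0.61 at 0.5 µM (adjusted p = 0.0373) and by 0.46 over all treated samples (adjusted p = 0.0157), and its slope was -0.18 ± 0.04 per 10-fold dose (adjusted p = 0.0402). PDIA6, another isomerase, fell by 0.37 over all treated samples (adjusted p = 0.0285), CALR, the lectin chaperone calreticulin, by 0.41 (adjusted p = 0.0447) and CRELD2, a secreted ER stress protein, by 0.31 (adjusted p = 0.0408). The groups overlap in all 3, with 312 to 365 CPM untreated and 215 to 338 treated for PDIA6, 683 to 1001 and 477 to 812 for CALR, and 19.2 to 28.6 and 16.5 to 20.7 for CRELD2. ALG12, on the strand opposite CRELD2, fell by 0.40 in that contrast (adjusted p = 0.0409). SDF2L1 and MANF had -0.38 ± 0.14 and -0.31 ± 0.11 in treated against untreated samples and missed the threshold (adjusted p = 0.0537 and 0.0554). SDF2L1 did fall along the doses, by 0.20 ± 0.04 per 10-fold dose (adjusted p = 0.0147), from 26.7 and 29.2 CPM at 0.0005 µM to 19.4 and 17.9 at 0.5 µM.

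The J-domain co-chaperones, which bring substrates to BiP, changed along the doses. DNAJB9 (ERdj4; chromosome 7, 108210311 to 108215294, plus strand, GRCh37), a target of spliced XBP1, read 19.2 and 31.4 CPM in C1, 29.8 and 33.2 in C2, 48.2 and 51.0 at 0.0005 µM, 37.3 and 42.5 at 0.005 µM, 28.7 and 23.5 at 0.05 µM, and 27.5 and 26.9 at 0.5 µM. Both replicates at 0.0005 and 0.005 µM exceed those at 0.05 and 0.5 µM. Its slope, a fall of 0.32 per 10-fold dose, was the steepest of the 35 (standard error 0.05, adjusted p = 0.00267). Against C2 it had 0.65 ± 0.20 at 0.0005 µM (adjusted p = 0.122) and -0.21 ± 0.20 at 0.5 µM (adjusted p = 0.559). DNAJC3 fell by 0.46 at 0.05 µM (adjusted p = 0.0488), a call lost in 14 of 19 alternatives, among them RLE scaling and both other filters (adjusted p from 0.00526 to 0.261 over the 19), and by 0.17 per 10-fold dose (adjusted p = 0.0298), with 78.4 and 83.8 CPM at 0.0005 µM and 60.6 and 56.4 at 0.5 µM.

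XBP1 and HERPUD1, a membrane protein of ER-associated degradation, were highest at 0.0005 µM. XBP1 read 127 and 141 CPM in C1, 149.6 and 151 in C2, 192 and 238 at 0.0005 µM, 159.7 and 164 at 0.005 µM, 141 and 124 at 0.05 µM, and 143 and 136 at 0.5 µM. Both samples at 0.0005 and at 0.005 µM lie above the C2 samples, and those of the higher doses lie below them. Its difference from C2 at 0.0005 µM was 0.52 ± 0.14 (adjusted p = 0.0866), and XBP1 fell by 0.22 per 10-fold dose (adjusted p = 0.0278). Its value at 0.5 µM against C2 was -0.11 ± 0.14 (adjusted p = 0.684). HERPUD1 read 98.0 and 79.9 CPM in C1, 113 and 113 in C2, 136 and 158 at 0.0005 µM and 97.1 and 96.0 at 0.5 µM. It fell by 0.18 per 10-fold dose (adjusted p = 0.028). SEL1L, a partner of the ubiquitin ligase of that pathway, read 112 to 129 CPM untreated and 82.6 to 142 treated, fell by 0.56 at 0.05 µM (adjusted p = 0.0415) and had -0.41 ± 0.15 at 0.5 µM (adjusted p = 0.13).

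Dose by dose against C2, no member was called lower at the lowest dose, and 5 and 4 were at the upper doses. At 0.0005 µM 4 members were called higher (DDIT3, STC2, NUPR1 and CHAC1) and 0 lower, where 1.87% of all tested genes were higher and 0.479% lower. At 0.005 µM 2 were higher and 1 lower (backgrounds 2.5% and 0.776%). The 0.05 µM dose had 4 higher and 5 lower (backgrounds 5.09% and 3.23%), and 0.5 µM had 2 higher, DDIT3 and STC2, and 4 lower (backgrounds 4.36% and 1.96%). Among tested genes of at least 8 CPM the shares called higher and lower were 1.13% and 0.724% at 0.0005 µM, 0.67% and 1.54% at 0.005 µM, 1.33% and 5.91% at 0.05 µM, and 1.25% and 3.5% at 0.5 µM. The ATF4 arm's median log2 fold change was 0.24, -0.08, -0.04 and -0.24 from the lowest to the highest dose, and that of the ER arm 0.07, -0.21, -0.40 and -0.39. Tested genes of at least 8 CPM had medians of -0.04, -0.12, -0.11 and -0.11. All 14 ER arm genes had negative values at 0.05 and at 0.5 µM, as had 7367 and 7206 of the 11193 tested genes of at least 8 CPM. The 4 comparisons share the C2 samples.

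**Figure D3:**
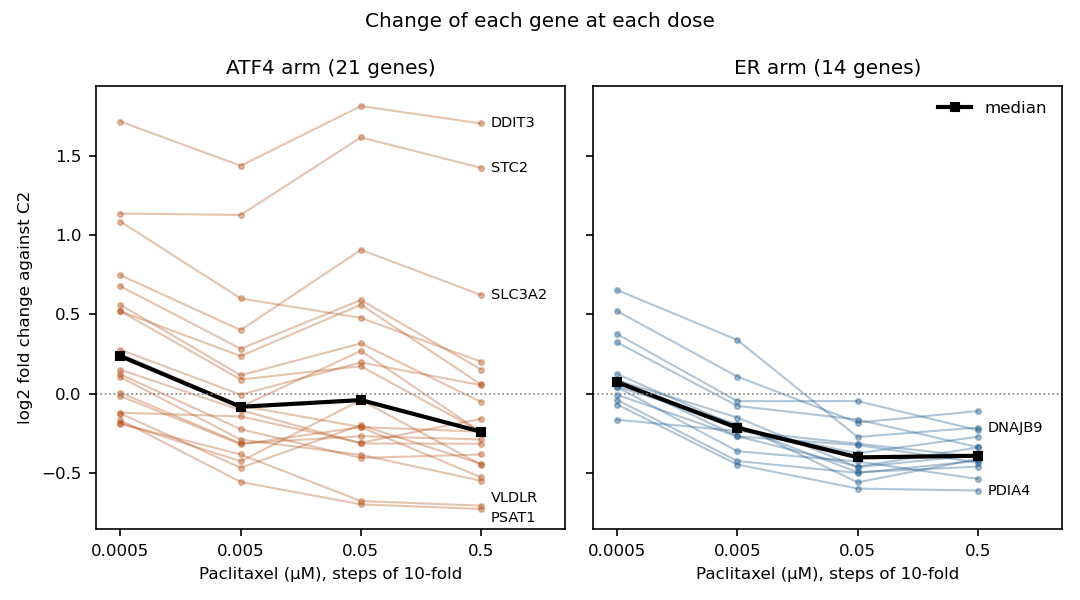
Thin lines join the log2 fold changes of single genes against C2 at the 4 doses, on a dose axis of 10-fold steps, and thick black lines give the median of each arm. The ER arm median goes from 0.07 to -0.39, and in the ATF4 arm DDIT3, STC2 and SLC3A2 stay above the rest at 0.5 µM.

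Across the 8 treated samples, 14 of the 35 genes declined along the doses and 0 increased, where 2.04% of all tested genes were called lower and 1.02% higher. In genes of at least 8 CPM those shares were 3.27% and 1.01%. The 14 are CEBPG, NUPR1, TRIB3, PSAT1, SHMT2, MTHFD2 and VLDLR in the ATF4 arm and HSPA5, PDIA4, DNAJB9, DNAJC3, SDF2L1, HERPUD1 and XBP1 in the ER arm. With a replicate block only NUPR1, TRIB3, SHMT2, VLDLR, DNAJB9 and SDF2L1 stayed called, where 1.66% of all tested genes were called in either direction. The slope was negative in 14 of 14 ER arm genes and 18 of 21 ATF4 arm genes, the exceptions being DDIT3, SLC3A2 and STC2, and in 6946 of the 11193 tested genes of at least 8 CPM. The median slope was -0.17 in the ER arm and -0.13 in the ATF4 arm, against -0.02 over tested genes of at least 8 CPM. Among the 4 doses, 29 of 35 members had their highest mean at 0.0005 µM, as had 47.15% of genes of at least 8 CPM. The other 6 peaked at 0.05 µM. Over all 6 conditions 15 members were highest at 0.0005 µM, 14 in C1, 5 at 0.05 µM and 1, VLDLR, in C2, and of genes of at least 8 CPM 17.75% were highest at 0.0005 µM and 49.58% in C1.

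**Figure D4:**
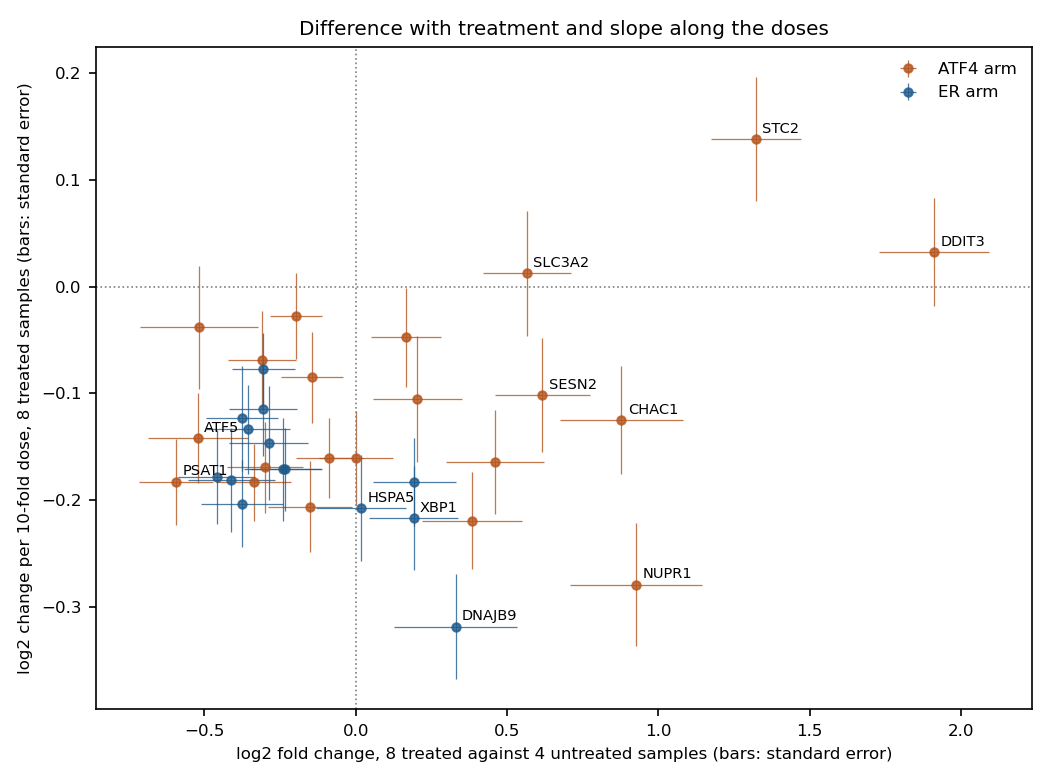
Each point is a gene, with its log2 fold change of 8 treated against 4 untreated samples on the horizontal axis, its log2 change per 10-fold dose among treated samples on the vertical axis, and standard errors as bars. STC2 and DDIT3 lie far right with slopes of 0.14 and 0.03, and the ER arm lies wholly below 0 on the vertical axis.

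Other genes of these pathways were read from a list of 95, of which 94 were tested (SLC7A3 was not). In treated against untreated samples 4 of the 94 were called higher and 15 lower, with a median of -0.16. Over all tested genes 13.1% were called higher and 11.3% lower, and over those of at least 8 CPM 3.92% and 21.1%, with a median of -0.15. Those higher were DDIT4 (0.74 ± 0.11), an mTORC1 inhibitor, ERN1 (0.74 ± 0.18), which encodes IRE1, CTH (0.39 ± 0.11), which makes cysteine, and CBS, which acts just before CTH. CBS read 0 in both C1 libraries and at most 0.405 CPM in any sample, so no fold is given for it. The 5 lower by the most were ATF3, a stress-induced factor that binds with ATF4 (-0.85 ± 0.20), SLC7A1, a cationic amino acid transporter (-0.74 ± 0.17), the cytosolic folate enzymes SHMT1 (-0.70 ± 0.11) and MTHFD1 (-0.57 ± 0.11), and EDEM1 of ER degradation (-0.57 ± 0.13). ATF3 read 455 and 312 CPM in C2 and 130.2 and 119.9 at 0.5 µM, where its log2 value fell by 1.62 while that of DDIT3 was 1.70. By list, the stress sensors and eIF2 branch had 2 higher and 5 lower of 18, aminoacyl-tRNA synthetases 0 and 1 of 19, other amino acid transport and one-carbon genes 2 and 5 of 21, and other ER folding and degradation genes 0 and 4 of 36. Along the doses 10 of the 94 declined and 0 increased, where 2.04% of all tested genes were called lower and 1.02% higher, and 3.27% and 1.01% of those of at least 8 CPM. Slopes were negative in 36 of 36 of the other ER folding and degradation genes and in 6946 of the 11193 genes of at least 8 CPM.

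Calls depended on single libraries. DDIT3 and STC2 at 0.05 µM, STC2 at 0.5 µM, the slope of DNAJB9, and DDIT3, STC2, NUPR1, SESN2, CHAC1, PSAT1 and SLC3A2 in treated against untreated samples stayed called whichever library was left out. Without C2 replicate 1, DDIT3 was lost at 0.0005, 0.005 and 0.5 µM (adjusted p = 0.0772, 0.173 and 0.0693) and STC2 at 0.0005 and 0.005 µM (adjusted p = 0.0588 and 0.0642). DDIT3 was also lost at 0.0005 µM without that dose's replicate 2 (0.0645) and at 0.005 µM without its replicate 1 (0.0592) or 2 (0.0922), and STC2 at 0.005 µM without its replicate 1 (0.0592). NUPR1 at 0.0005 µM and SLC3A2 at 0.05 µM were lost without any 1 of the 4 libraries compared (adjusted p = 0.0702 to 0.155 and 0.0981 to 0.122). PSAT1 and VLDLR at 0.5 µM were lost without C2 replicate 1 or that dose's replicate 2 (0.113 to 0.128 and 0.122 to 0.143). At 0.05 µM PSAT1 was lost without C2 replicate 1 or that dose's replicate 2 (0.0851 to 0.0955), and VLDLR without C2 replicate 1 or either replicate of that dose (0.0522 to 0.101). The calls of CHAC1 at 0.0005 and 0.05 µM, PSAT1 at 0.005 µM, SHMT2 and PDIA4 at 0.5 µM, and PDIA4, DNAJC3 and SEL1L at 0.05 µM were each lost without any 1 of 7 to 10 libraries, both C2 libraries among them, at adjusted p-values up to 0.353. CHAC1 in C2 against C1 was lost without C2 replicate 2 (0.0696). In treated against untreated samples 7 members were called without C1 replicate 1, in a fit that called 16.3% of all tested genes (24.4% with all libraries), and ATF5 (0.224), CEBPB (0.0765), CALR (0.19), PDIA4 (0.0605), PDIA6 (0.0876) and CRELD2 (0.192) were lost. Other single libraries, among them C2 replicate 1, also ended the calls of ATF5, CALR, PDIA6 and CRELD2. CEBPB was lost without any 1 of 9 of the 12 libraries, both of C1 and 7 treated ones (adjusted p = 0.0559 to 0.0963). The slope was called in 1 member, DNAJB9, without replicate 1 or 2 of 0.0005 µM or without replicate 2 of 0.5 µM, and in 9 without replicate 2 of 0.005 µM. Those fits called 0.491%, 1.11%, 0.978% and 1.75% of all tested genes, in that order, against 3.06% with all treated libraries.

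The spread between the C1 replicates enters every dose comparison through the shared model. With C1 left out, the members called were 11 higher and 0 lower at 0.0005 µM, 4 and 5 at 0.005 µM, 6 and 11 at 0.05 µM, and 3 and 16 at 0.5 µM, where the shares of all tested genes called rose as well, to 5.68% and 4.5%, 6.47% and 6.13%, 9.97% and 9.07%, and 9.21% and 10.7%. In that setting the 3 ER arm genes DNAJB9, HERPUD1 and XBP1 were called higher at 0.0005 µM (0.66 ± 0.12, 0.38 ± 0.11 and 0.53 ± 0.12) and 8 ER arm genes lower at 0.5 µM. It was added after the data were seen. No member changed direction between a call and any alternative.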

How the data were processed

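Total RNA of 12 MDA-MB-231 cultures was sequenced as paired-end reads. Per the labels and the study's methods, the authors trimmed reads with Trimmomatic (version 0.39), checked them with FastQC (version 0.11.9), aligned them to hg19 (GRCh37) with STAR (version 2.7.5), kept unique alignments and deposited raw counts per gene over exons. The strand setting and annotation release are not given in the sources used here, and ribosomal depletion or poly(A) selection is not stated either. The deposited counts are not normalised, and the 12 single-sample files held the same values as the columns of the whole table.

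Identifiers were matched to symbols for 55665 of 63568 rows, and positions come from the GRCh37 annotation supplied. Levels are CPM on TMM-scaled library sizes. edgeR (version 4.0.16, R 4.3.3) quasi-likelihood tests (robust) used genes passing filterByExpr by condition, 25249 in all, two-sided, with Benjamini-Hochberg adjustment over all of them. The 4 doses against C2 and C2 against C1 were fitted in 1 model of the 6 conditions (6 residual degrees of freedom, biological coefficient of variation 15.6%), treated against untreated in a fit of its own (10 degrees of freedom, 17.7%), and a slope per log10 of the dose over the 8 treated libraries (6 degrees of freedom, 13.0%). The standard error is the log2 fold change over the square root of the F statistic. The code was tested on simulated data. Alternatives were RLE scaling, other filters, a replicate block, DESeq2 (version 1.42.0), fits on fewer samples and leaving out each library. A library of 38380629 counts gives fewer reads to low genes than one of 79169121. In the model of the 6 conditions p-values measure the spread between 2 cultures a condition. In treated against untreated samples the spread also holds the differences between doses and days. For the slope it also holds departures of the doses from a straight line.

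All 35 members are named. Full statistics are given for those called in any of the 7 comparisons and for the largest and smallest change at 0.5 µM in each of 6 classes, and of other pathway genes at most 5 called in each direction with treatment are named. The members and lists were chosen with earlier results of these data known.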

Additional observations from a re-analysis of the deposited data

Results flagged for a closer look

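In the 35 genes, the untreated samples (4) and the treated samples (8) were searched for a sample far from the rest of its group by Dixon's ratio, 70 groups in all, of which chance alone would mark about 1 in 20. 1 was marked. CEBPB read 41.3 CPM in C1 replicate 2, the shallowest library, against 69.2 to 76.8 CPM in the other untreated samples, a gap of 0.832 of the group's range in log2 CPM (critical value 0.829). In CPM the gap was 0.785 of the range, under the critical value. CEBPB was not called in treated against untreated samples without that library (edgeR adjusted p = 0.0963), nor without any 1 of 8 others (range over leaving out each of the 12 libraries 0.0288 to 0.0963).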

How the results depend on the processing

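Of 865 alternatives of the 50 single-gene calls, 642 kept the call, 223 lost it and 0 reversed it, and 237 of 252 alternative arm medians moved by less than the spread between replicates. The count of members called depended most on which libraries entered. In the 4 samples compared alone it was 11 at 0.0005 µM, 8 at 0.005 µM and 0 in C2 against C1, where 12%, 11% and 0% of all tested genes were called. With day 4 samples alone, a setting added after the data were seen, it was 11, 9, 17 and 19 at rising doses and 5 in treated against untreated samples, and for the mean of the 4 doses against C2 it was 8. In those fits 10.2%, 12.6%, 19.0%, 19.9%, 13.5% and 9.74% of all tested genes were called. Leaving out 1 library at a time gave 0 to 11 members at 0.0005 µM, 0 to 9 at 0.005 µM, 2 to 17 at 0.05 µM, 1 to 19 at 0.5 µM, 0 to 7 in C2 against C1, 7 to 18 in treated against untreated samples and 1 to 17 for the slope. The share of all tested genes called in these fits ran from 0.558 to 10.2%, 0.333 to 13.0%, 1.28 to 19.0%, 0.507 to 19.9%, 0.186 to 11.0%, 16.3 to 27.5% and 0.491 to 4.03% in the same order. Where this left a condition with 1 sample, that sample was assumed to vary like the others. The higher ends come from leaving out C1 replicate 1 or 2 for the doses, and the lower ends from leaving out C2 replicate 1 or a library of the dose.

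Leaving out 1 library, the ATF4 arm median was 0.16 to 0.24 at 0.0005 µM, -0.22 to 0.055 at 0.05 µM, -0.32 to -0.19 at 0.5 µM, 0.11 to 0.21 in C2 against C1 and -0.14 to -0.10 for the slope. The ER arm median was -0.51 to -0.31 at 0.5 µM, -0.13 to 0.067 in C2 against C1 and -0.21 to -0.14 for the slope. A filter at a mean of 1 CPM shifted the changes of genes of at least 8 CPM by a median of up to 0.09. It gave ATF4 arm medians of 0.013 at 0.005 µM, 0.048 at 0.05 µM, -0.16 at 0.5 µM and 0.083 in treated against untreated samples. DESeq2 called 6, 3, 13 and 9 members at rising doses, 1 in C2 against C1, 19 in treated against untreated samples and 21 for the slope, where it called 4.65%, 5.39%, 10.6%, 9.18%, 1.07%, 28% and 6.72% of all tested genes. RLE scaling ended the calls of DNAJC3 at 0.05 µM and of CEBPB in treated against untreated samples. At least 1 other filter ended those of DNAJC3 and SEL1L at 0.05 µM, PSAT1 at 0.005 µM, SHMT2 at 0.5 µM, and ATF5, CALR, PDIA6 and CRELD2 in treated against untreated samples. A replicate block also ended the call of DNAJC3 at 0.05 µM and left 6 members called for the slope, where 1.66% of all tested genes were (3.06% without it). Whether equal replicate numbers pair the samples was not settled. Over 15 pairs of conditions the deviations of equal-numbered samples correlated at -0.60 to 0.70, with a median of 0.15. Of these pairs 8 were over 0.1, and values of both signs cannot exclude pairing in some conditions. The causes were not tested. NUPR1 and STC2, with 51 and 53 reads in the library with fewest, are the members whose levels depth limits most.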
